A study of Homo sapiens with 6 samples.

Results

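The amino acid stress response of ATF4 was followed through 42 genes on 6 arrays of the breast cancer line MDA-MB-231. The genes were taken from a list of ATF4, the factors that act with it and genes known to be induced through it, and a gene counted as measured where the platform annotation paired a probe set with its symbol alone. All 42 listed genes were measured, of 18377 genes in all. MTHFD2, PSPH and SLC1A5 had 2 probe sets each and were read by the brighter one, the other 39 members by their single probe set.

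When amino acids run short, or when other stresses arise in the endoplasmic reticulum or the mitochondria, kinases phosphorylate the translation factor eIF2alpha. Most protein synthesis then slows while the ATF4 message is translated more, so ATF4 protein can accumulate with little change in its messenger RNA. ATF4 pairs with C/EBP proteins on composite DNA elements and raises genes for amino acid import, for serine, glycine and asparagine synthesis, for charging tRNAs and for feedback on the stress itself.

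The cells carried the pTargeT mammalian expression vector, either empty or with GHSROS, a long noncoding RNA read from the strand opposite the ghrelin receptor gene GHSR. Total RNA of 3 samples a group, called biological replicates in the series' design, was hybridised to Affymetrix Human Gene 1.0 arrays, and both groups shared the medium, DMEM/F12 with Cosmic calf serum. MDA-MB-231 is an established line of mesenchymal, triple-negative character. The labels do not state the time after transfection, any selection or the cell density at harvest. No probe set was named for GHSROS, so its level was not checked.

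The composite element is shown first because it ties several members to ATF4 by sequence. Its core, TGATGNAA, was searched on both strands of the RefSeq promoter windows (GRCh38.p14), each 250 bases before to 50 bases after a transcript start. Windows existed for 35 of the 42 members, and 14 of these 35 (40.0%) held the core in at least 1 window, against 4.46% of 27305 genes and 3.62% of 35116 windows. The stricter TGATGCAA, which lies within the first motif, was found in 10 of 35 members and 1.08% of all genes. The members were listed as ATF4 targets to begin with, so this share describes the list. A match is a stretch of letters, with no binding measured here.

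Stretches of 60 bases are given for ASNS, CHAC1, CEBPG and AARS1. Of genes with a window, ASNS was the 1 match among 5 enzymes, CHAC1 among 7 effectors and CEBPG among 5 factors. Matches were more frequent in the group of AARS1, synthetases and tRNA export (7 of 11), and in transporters (4 of 7). The stretches run 5′ to 3′ on the gene's strand and end before the start site, with the core in capitals. In CHAC1 and AARS1 the core is on the opposite strand and reads TTGCATCA in the gene's direction. The first base of the core lay 68 bases before a listed start in ASNS, 209 in CHAC1, 42 in CEBPG and 187 in AARS1.
ASNS, chr7:97872443-97872502, minus strand: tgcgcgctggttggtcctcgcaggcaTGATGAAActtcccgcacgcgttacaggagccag
CHAC1, chr15:40953236-40953295, plus strand: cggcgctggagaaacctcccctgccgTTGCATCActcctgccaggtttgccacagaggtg
CEBPG, chr19:33374045-33374104, plus strand: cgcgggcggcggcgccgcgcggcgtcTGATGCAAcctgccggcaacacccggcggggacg
AARS1, chr16:70289660-70289719, minus strand: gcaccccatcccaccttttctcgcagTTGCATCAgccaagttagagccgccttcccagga

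In 5 of the 7 tRNA synthetase members with the core it began within 15 bases of a listed start, and 30 bases around it are given for these and for 2 transporters. In GARS1 it began 33 bases before the start. The first base of the core lay 13 bases before the start in IARS1, 4 in MARS1, 2 in CARS1 and 7 in SLC1A4. It was at base 3 of the transcript in TARS1, base 15 in NARS1 and base 8 in SLC7A1, an arginine transporter gene that is shown because its levels ran against the other members.
IARS1, chr9:92293692-92293721, minus strand: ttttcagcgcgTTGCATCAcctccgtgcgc
MARS1, chr12:57488053-57488082, plus strand: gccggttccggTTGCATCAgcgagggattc
CARS1, chr11:3057407-3057436, minus strand: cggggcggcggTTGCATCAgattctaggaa
TARS1, chr5:33440956-33440985, plus strand: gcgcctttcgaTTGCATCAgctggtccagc
NARS1, chr18:57621804-57621833, minus strand: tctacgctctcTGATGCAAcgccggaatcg
SLC1A4, chr2:64989381-64989410, plus strand: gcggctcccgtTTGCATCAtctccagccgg
SLC7A1, chr13:29595663-29595692, minus strand: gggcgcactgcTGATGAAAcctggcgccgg

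GHSROS was compared with the empty vector to ask whether the transcript shifts the ATF4 response. No member passed the test, and in all 42 the values of both groups overlapped. ATF4 itself stood at 10.33, 10.32 and 9.59 on empty-vector arrays 1, 2 and 3 and at 9.95, 10.08 and 10.14 on GHSROS arrays 1, 2 and 3, all as log2 levels. In bulk RNA, fewer cells with a transcript and less of it per cell cannot be told apart. The GHSROS arrays lay inside the spread of the empty-vector arrays. The group means were 10.08 ± 0.42 (SD, n = 3) and 10.06 ± 0.10, a log2 fold change (GHSROS minus empty vector) of -0.02 with a 95% interval from -0.51 to 0.46.

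In limma 0 of 42 members had an adjusted p under 0.05, against 0% of 18377 genes, and the adjusted p of every member was 1. Without adjustment, 0 members and 325 genes (1.77% of all) had a p under 0.05. Groups without overlap were seen for 0 members and for 5.51% of all genes. The log2 fold changes of members ran from -0.28 for CHAC1 to 0.28 for SLC1A4, with a median of -0.02 beside 0.0019 over all genes, and 16 members were higher and 26 lower. The smallest p among members was 0.282, for SLC1A5, in limma.

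For 33 of 42 members the 95% interval of the log2 fold change lay within -1 and 1, that is, within a 2-fold difference either way. The same held for 17874 of all 18377 genes. Those 33 include STC2 and ALDH1L2, which lay below every array's median. The other 9 members were NUPR1, DDIT4, CHAC1, VLDLR, GDF15, ASNS, PHGDH, SLC1A4 and SLC6A9, whose intervals were wider. For NUPR1 the interval ran from -3.51 to 3.61 and for GDF15 from -2.02 to 2.49 (SE 0.95). In this fit of group alone, with 3 arrays a group, a several-fold difference in either gene was not detectable. At the other end, MTHFD2 had an interval from -0.17 to 0.21 and SLC7A11 one from -0.16 to 0.23.

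**Figure D1:**
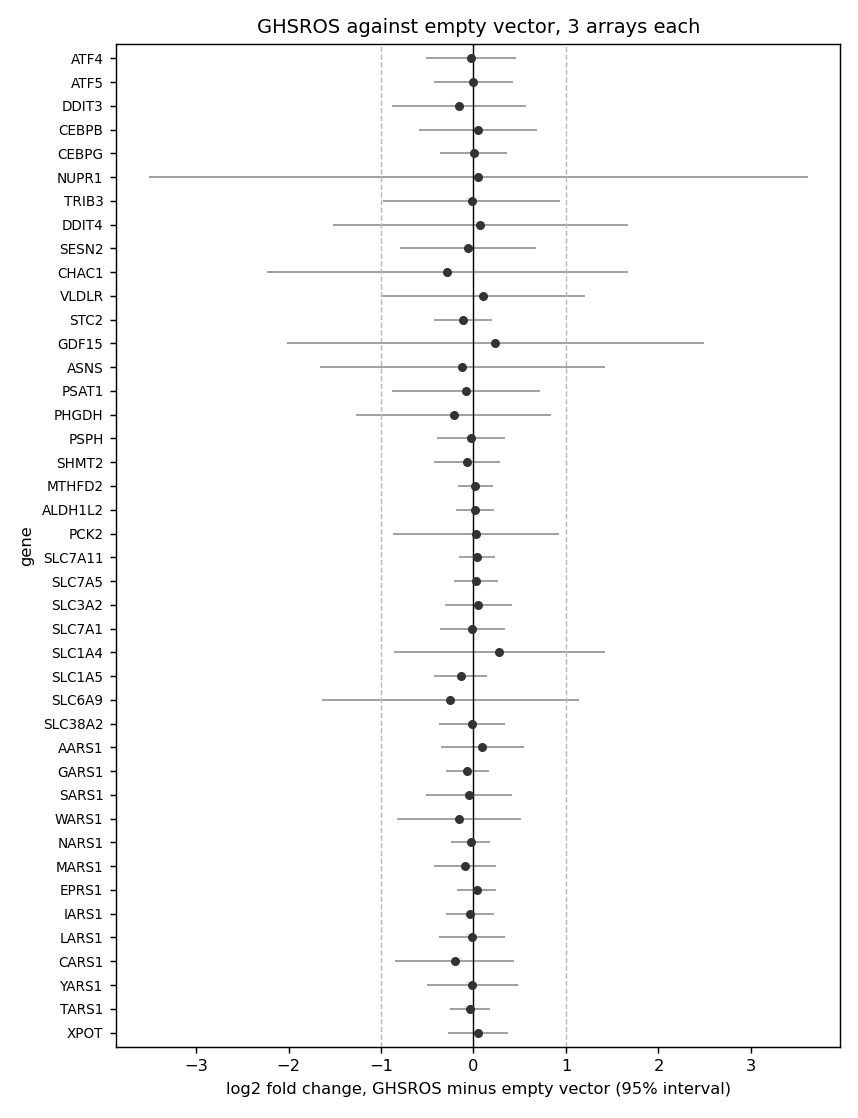
Log2 fold change of each member, GHSROS minus empty vector, on the horizontal axis, with genes ordered by role. Points are limma estimates from 3 arrays a group and bars their 95% intervals, and dashed lines mark a 2-fold difference. All 42 intervals cross 0, and those of NUPR1, GDF15 and CHAC1 are the widest.

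The direction of the list depended on single arrays. Without empty-vector array 1, 34 of 42 members were higher with GHSROS and the median log2 fold change was 0.10. Without GHSROS array 3, 38 of 42 were lower and the median was -0.18. The median was also above 0 without GHSROS array 1 (0.05) or 2 (0.04), while without both empty-vector array 1 and GHSROS array 3 it was -0.04, with 29 members lower.

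Most members varied far more between arrays of 1 group than between the groups. Empty-vector array 1 and GHSROS array 3 held the 2 highest values in 33 of the 42 members, against 18.9% of all genes. Averaged over the members, the log2 level was 10.64, 10.14 and 9.86 on empty-vector arrays 1, 2 and 3 and 9.92, 9.96 and 10.68 on GHSROS arrays 1, 2 and 3. The difference between groups held a median of 1.85% of a member's variance, against 6.12% over all genes.

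Within the empty-vector group, 37 of 42 members were higher on array 1 than on array 2, by a median of 0.34, and 36 were higher on array 1 than on array 3, by a median of 0.49. Within the GHSROS group, 38 members were higher on array 3 than on array 1 (median difference 0.39) and 40 were higher than on array 2 (0.42). Empty-vector array 1 and GHSROS array 3, which carry different vectors, were the closest pair over the members, with a median absolute difference of 0.07. These arrays were known from earlier results to stand apart, so the counts describe the arrays and are no test.

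The remaining 4 arrays were not alike either. Empty-vector array 2 came next in 23 of the 33 members in which empty-vector array 1 and GHSROS array 3 were highest. It was above empty-vector array 3 in 32 of 42 members and above GHSROS array 1 in 31. Over all genes, empty-vector array 2 came next in 1570 of the 3479 that had that pair on top.

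**Figure D2:**
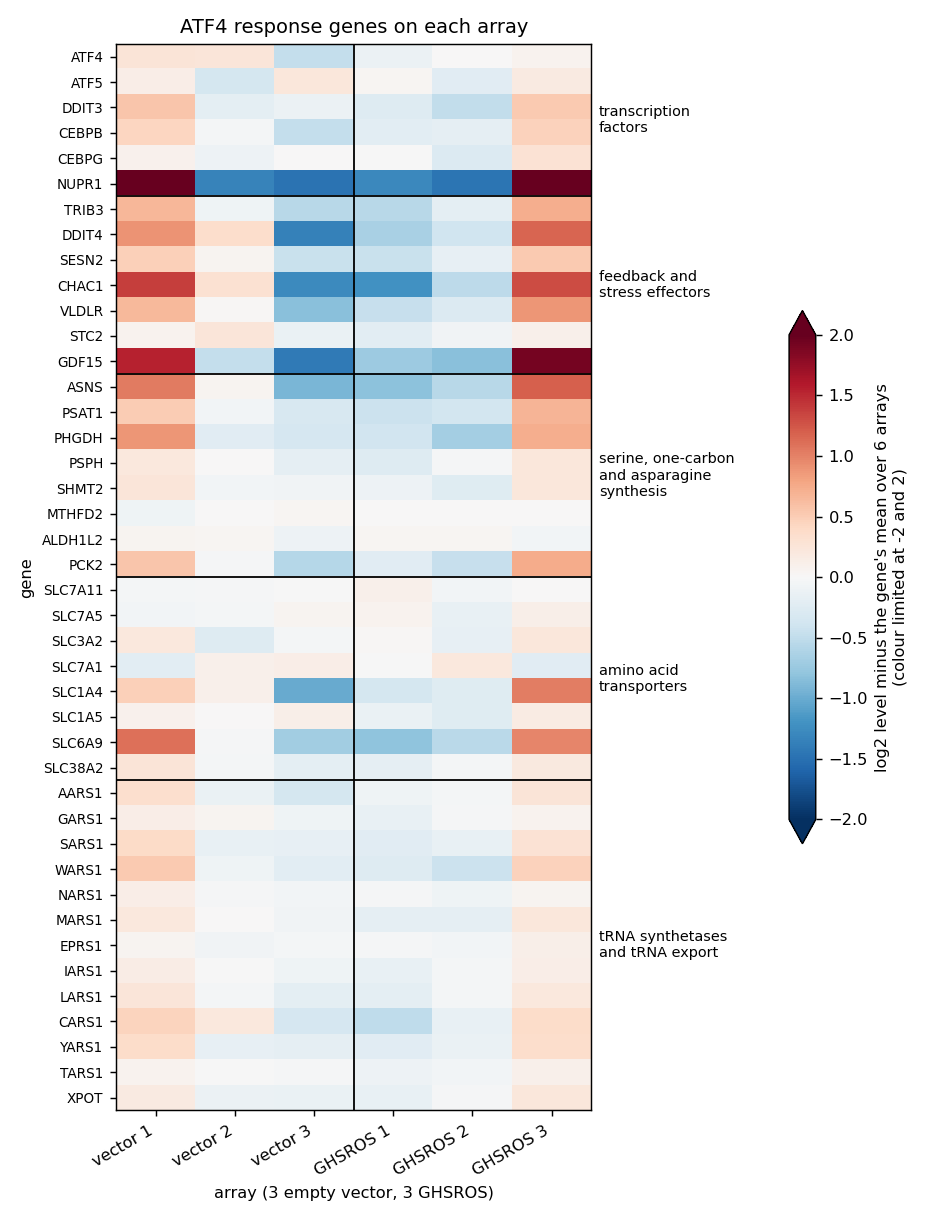
Colour map of the 42 members (rows, grouped by role) on the 6 arrays (columns), as the log2 level minus the gene's mean over the arrays, with the colour limited at -2 and 2. The columns of empty-vector array 1 and GHSROS array 3 are red in most rows, and NUPR1, GDF15, CHAC1 and DDIT4 show the deepest colours.

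The range of a member, its highest minus its lowest array, had a median of 0.59 on the log2 scale, against 0.37 over all genes. In 13 members it exceeded 1.04, the 95th percentile of all genes, and 6 members were among the 100 genes with the widest range. NUPR1 ranked 2, GDF15 6, CHAC1 11, DDIT4 20, ASNS 56 and SLC1A4 74 of 18377. At the narrow end, MTHFD2, ALDH1L2 and SLC7A11 had ranges of 0.12, 0.15 and 0.16.

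Of the 6 transcription factor members, 3 were higher with GHSROS and 3 lower, and the widest range belonged to NUPR1, a small chromatin-associated protein induced by stress. NUPR1 stood at 10.82, 6.74 and 6.61 on empty-vector arrays 1, 2 and 3 and at 6.79, 6.62 and 10.93 on GHSROS arrays 1, 2 and 3. The values formed 2 levels with nothing between them, 19.9-fold apart from highest to lowest, and each group held both. The 4 lower arrays lay between 6.61 and 6.79, close to the array medians, which ran from 6.56 to 6.65. The lower end of that ratio may therefore hold little signal.

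DDIT3 encodes CHOP, which acts downstream of ATF4 and promotes cell death under lasting stress. It stood at 9.19, 8.45 and 8.52 with the empty vector and at 8.38, 8.14 and 9.17 with GHSROS. The groups overlapped, and their log2 fold change was -0.16 (SE 0.31). CEBPB and CEBPG, partners of ATF4 on the composite element, were highest on GHSROS array 3 (10.98 and 9.66) and next on the first empty-vector array (10.95 and 9.45). Their ranges over the arrays were 0.94 and 0.57.

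ATF4 and ATF5, a related factor, had other orders. ATF4 was about equally high on empty-vector arrays 1 and 2, and GHSROS array 3 came after them, with a range of 0.74. ATF5 was highest on empty-vector array 3 (8.23) and lowest on empty-vector array 2 (7.66). The highest array exceeded the lowest by 1.67-fold for the ATF4 message, and ATF4 protein was not measured.

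Among the 7 feedback and stress effectors, 6 had empty-vector array 1 and GHSROS array 3 on top with empty-vector array 2 next. Between the groups 3 were higher and 4 lower. CHAC1, which degrades glutathione, stood at 11.06, 9.97 and 8.39 on empty-vector arrays 1, 2 and 3 and at 8.45, 9.15 and 10.98 on GHSROS arrays 1, 2 and 3. These values made 4 steps, with the extremes 6.34-fold apart and the groups overlapping throughout. Its log2 fold change of -0.28 (SE 0.82) was well inside that spread.

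GDF15, a secreted cytokine that reports stress to the brain, stood at 11.83, 9.82 and 8.89 with the empty vector and at 9.57, 9.47 and 12.20 with GHSROS. It was 9.95-fold higher on the highest array, GHSROS array 3, than on the lowest, empty-vector array 3. DDIT4, an inhibitor of mTORC1 also known as REDD1, was at 11.18, 10.63 and 8.93 and at 9.64, 9.88 and 11.44, with the same array highest and the same array lowest. TRIB3, a pseudokinase that restrains ATF4 and CHOP, SESN2, a leucine sensor that also restrains mTORC1, and VLDLR, a lipoprotein receptor, had ranges of 1.29, 0.98 and 1.72.

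STC2, which encodes the secreted glycoprotein stanniocalcin 2, was the exception. At 5.36, 5.53 and 5.15 with the empty vector and 5.08, 5.22 and 5.39 with GHSROS it lay below every array's median, which ran from 6.56 to 6.65. At that level an array value may hold little signal, and whether STC2 is expressed cannot be told from it. It had the smallest p of the effectors, 0.412 in limma, with a log2 fold change of -0.11 (SE 0.13).

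**Figure D3:**
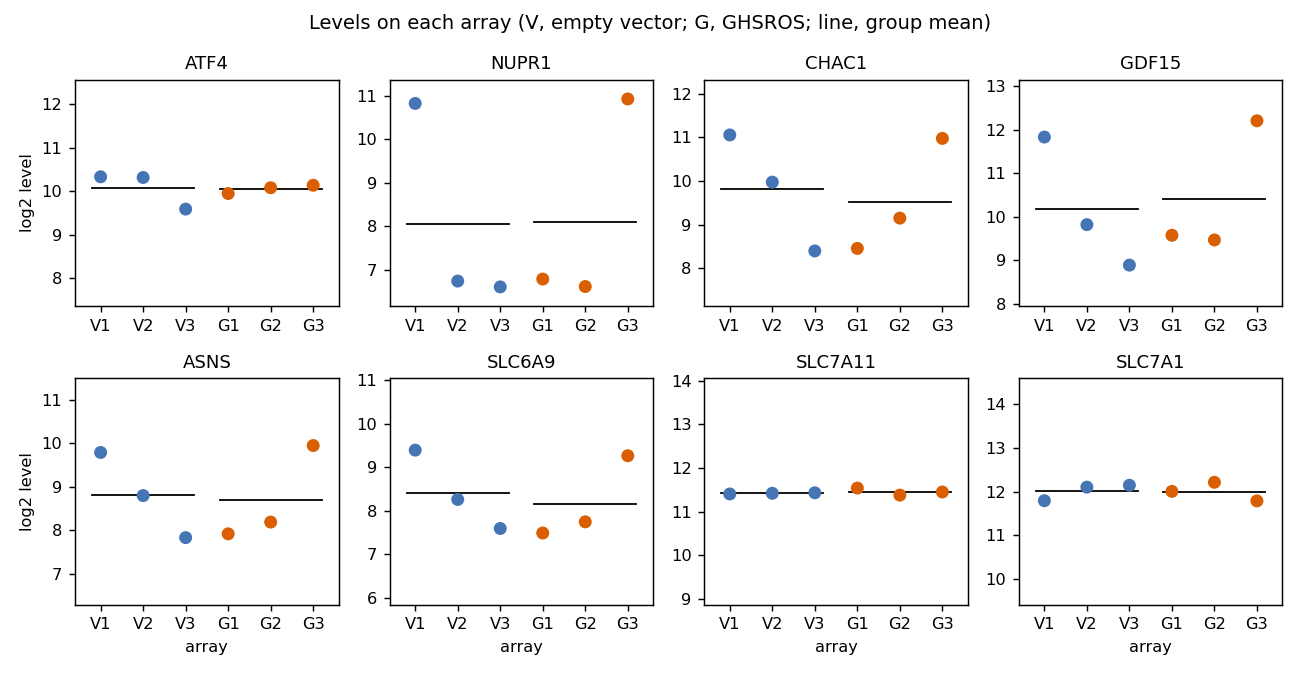
Log2 level of 8 members on each array, with empty-vector arrays (V) in blue, GHSROS arrays (G) in orange and a line at each group's mean of 3 arrays. Every panel spans the same number of log2 units. NUPR1 forms 2 levels within each group, CHAC1 and ASNS form steps, and SLC7A11 and SLC7A1 differ little.

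Of the 8 enzymes of serine, one-carbon and asparagine synthesis, 6 had empty-vector array 1 and GHSROS array 3 on top, each with empty-vector array 2 next. ASNS, asparagine synthetase, whose promoter element is shown above, stood at 9.79, 8.80 and 7.83 with the empty vector and at 7.92, 8.19 and 9.95 with GHSROS. Its extremes were 4.33-fold apart. PHGDH, the first enzyme of serine synthesis, was at 11.10, 10.00 and 9.88 and at 9.84, 9.54 and 10.95, and had the smallest p of these enzymes, 0.645 in limma (log2 fold change -0.21, SE 0.45).

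The later steps of serine synthesis followed the same order. PSAT1, the aminotransferase, had a range of 1.10 and PSPH, the phosphatase, 0.49, and the second probe set of PSPH ran from 9.81 to 10.35. PCK2, the mitochondrial PEP carboxykinase, ranged over 1.31 and SHMT2, which makes glycine in mitochondria, over 0.48. MTHFD2, the next mitochondrial folate enzyme after SHMT2 and an established ATF4 target, did not share the order. By its brighter probe set it was lowest on empty-vector array 1 at 10.46 and between 10.55 and 10.58 on the other 5 arrays. Its second probe set was lowest on GHSROS array 2 (10.19) and highest on GHSROS array 3 (10.43), with empty-vector array 1 at 10.33. ALDH1L2 lay at 4.14 to 4.29, below every array's median.

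The 8 amino acid transporters did not share 1 order, with empty-vector array 1 and GHSROS array 3 highest in 4. SLC1A4, which carries alanine and serine, stood at 8.56, 8.18 and 7.07 with the empty vector and at 7.72, 7.83 and 9.09 with GHSROS. SLC6A9, the glycine transporter, was at 9.39, 8.26 and 7.59 and at 7.49, 7.75 and 9.27. In both genes the groups overlapped, with extremes 4.07-fold and 3.74-fold apart. That pair was also highest for SLC38A2, a neutral amino acid transporter, and SLC3A2, the heavy chain of several transporters, with ranges of 0.45 and 0.47.

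Exchangers of large and sulphur amino acids were nearly flat. SLC7A11, the cystine importer, ran from 11.38 to 11.54, and SLC7A5, the leucine importer that pairs with SLC3A2, from 12.13 to 12.39. SLC7A1, which carries arginine and lysine, was the 1 member lowest on empty-vector array 1 and GHSROS array 3, at 11.79 and 11.79, against 12.00 to 12.21 on the others. In all genes that pair was lowest in 20.4%. SLC1A5, the glutamine transporter, stood at 11.30, 11.22 and 11.34 with the empty vector and at 11.09, 10.97 and 11.37 with GHSROS. The groups overlapped, and the log2 fold change was -0.14 with a 95% interval from -0.43 to 0.14. The dimmer probe set of SLC1A5 was highest on empty-vector array 3 (7.24) and lowest on GHSROS array 2 (6.72). With its probe sets averaged the log2 fold change was -0.11.

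The synthetases that charge tRNAs had the narrowest median range of the 5 role groups and shared 1 pair of highest arrays. Empty-vector array 1 and GHSROS array 3 held the 2 highest values in all 13 genes of this group, the 12 synthetases and XPOT, the exportin of tRNA. Their ranges ran from 0.19 for EPRS1 to 0.96 for WARS1, with a median of 0.41. WARS1 stood at 11.69, 11.08 and 10.95 with the empty vector and at 10.90, 10.72 and 11.62 with GHSROS. CARS1 was at 10.41, 10.18 and 9.63 and at 9.46, 9.82 and 10.33, with a log2 fold change of -0.20 (SE 0.27) and a p of 0.480 in limma, the smallest of the group.

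The remaining synthetase members had the same 2 arrays on top, over smaller ranges. The order below that pair varied, with empty-vector array 2 next in 7 of the 13 genes. AARS1, SARS1, YARS1, LARS1 and MARS1 ranged over 0.69, 0.60, 0.60, 0.43 and 0.41, and IARS1, GARS1, TARS1 and NARS1 over 0.29, 0.27, 0.21 and 0.21. XPOT ranged over 0.38. Between the groups 3 of the 13 were higher and 10 lower, and the 95% intervals of all 13 lay within a 2-fold difference. Of the 11 with a promoter window, 7 held the TGATGNAA core, which includes TARS1 and NARS1 with their narrow ranges.

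Synthetases outside the ATF4 list ran the other way. Of 7 other cytosolic synthetases measured, 0 had empty-vector array 1 and GHSROS array 3 on top and 5 had them lowest. Over all genes these shares were 18.9% and 20.4%. RARS1, for arginine, stood at 11.03, 11.23 and 11.50 with the empty vector and at 11.48, 11.32 and 10.94 with GHSROS. FARSB, a subunit for phenylalanine, was at 11.70, 11.80 and 12.25 and at 12.10, 11.97 and 11.68, so its lowest array in each group was the highest one for AARS1 and WARS1. QARS1, for glutamine, differed little, from 11.82 to 11.95.

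Of 16 mitochondrial synthetases, 1 had that pair on top and 12 had it lowest, with LARS2 and YARS2 the most variable at ranges of 0.78 and 0.64. FARS2 had the smallest p of these, 0.168 in limma, with a log2 fold change of -0.22 (SE 0.14). The TGATGNAA core was found in 0 of 6 other cytosolic and 1 of 14 mitochondrial synthetases with a window. The difference between these lists was not tested, since the arrays that define the order were not a group of the study.

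**Figure D4:**
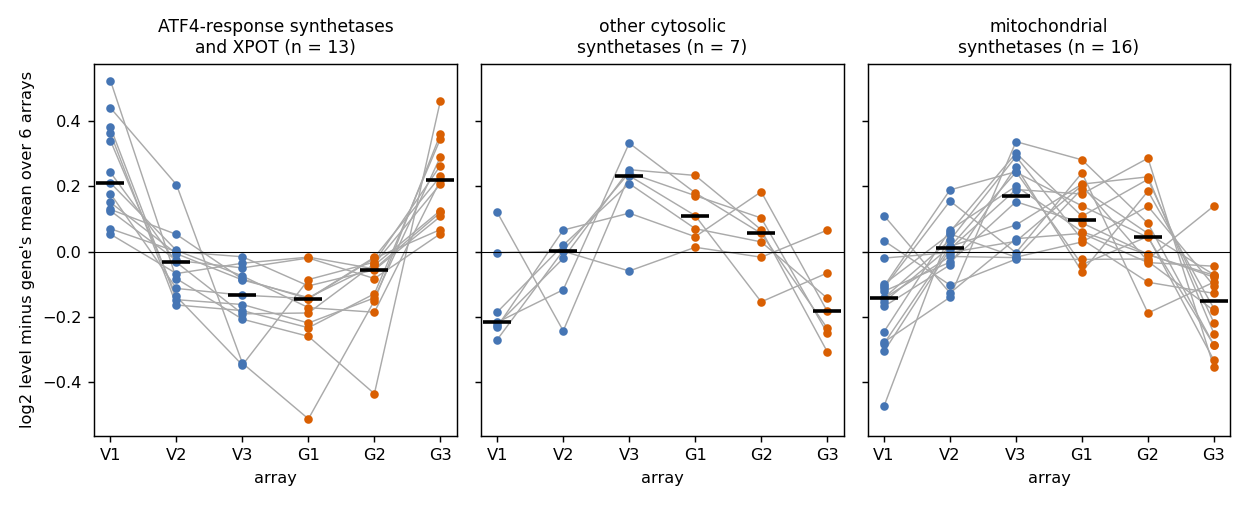
Log2 level minus each gene's mean over the 6 arrays, for 13 ATF4-response genes of tRNA charging and export, 7 other cytosolic and 16 mitochondrial synthetases. Points are genes, grey lines join a gene's values, black bars are medians, and arrays have no order within a group (V, empty vector; G, GHSROS). On V1 and G3 the first panel is above 0 in every gene, while the medians of the other panels are below 0.

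Upstream of ATF4, the kinases and factors around eIF2 showed no common order. Of 16 such genes measured, 3 had empty-vector array 1 and GHSROS array 3 on top and 3 had them lowest, and the mean over the list stayed between 10.41 and 10.48. Between the groups 6 were higher and 10 lower, with 0 past an adjusted or an unadjusted p of 0.05. EIF2B3 and EIF2B2, subunits of the exchange factor of eIF2, ran opposite to each other, with ranges of 0.67 and 0.53. IMPACT, an inhibitor of the kinase GCN2, had the smallest p, 0.186 in limma, with a log2 fold change of -0.14 (SE 0.09).

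A further list held 23 measured genes induced through ATF4 or CHOP. Of these, 5 lay below every array's median (ATF3, FGF21, INHBE, BEX2 and SLC7A3). The list's median range was 0.36, against 0.37 over all genes. In 10 of the 23 empty-vector array 1 and GHSROS array 3 were highest and in 3 lowest. Between the groups 12 were higher with GHSROS and 11 lower, with 0 past an adjusted or an unadjusted p of 0.05. ASS1, which makes argininosuccinate on the way to arginine, stood at 10.89, 9.49 and 8.63 with the empty vector and at 8.50, 9.24 and 10.97 with GHSROS. KLHL24, a ubiquitin ligase adaptor, was at 10.13, 9.27 and 7.83 and at 8.28, 8.92 and 10.04. Both, like CHAC1, had empty-vector array 2 next after that pair, with ranges ranked 22 and 33 of all genes. BBC3, the cell death gene PUMA, had the smallest p, 0.206 in limma (log2 fold change 0.16, SE 0.11).

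The endoplasmic reticulum arms of the stress response shared the order in part. Of 20 measured genes of ER chaperones and the ATF6 and XBP1 arms, 10 had that pair on top and 2 lowest. Their median range was 0.35, against 0.37 over all genes, and the 2 widest are given first. DNAJB9, a cochaperone of BiP, stood at 8.91, 7.90 and 7.53 with the empty vector and at 7.61, 7.75 and 8.91 with GHSROS, and HERPUD1, of ER-associated degradation, at 11.19, 10.52 and 10.09 and at 10.34, 10.41 and 11.13. PDIA6, a disulphide isomerase with the smallest p of the list (0.188 in limma), differed by 0.14 (SE 0.09). Between the groups 12 were higher and 8 lower, with 0 past an adjusted or an unadjusted p of 0.05. Among cytosolic one-carbon genes that pair was lowest in all 5 measured, against 20.4% of all genes. The 5 include TYMS (range 0.94), SHMT1 (0.70) and GART (0.27). The mitochondrial SHMT2 had the pair on top, but the mitochondrial MTHFD2 did not by either probe set.

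Mitosis genes ran opposite to the ATF4 response. All 10 of a short list were lowest on empty-vector array 1 and GHSROS array 3, against 20.4% of all genes. The list means were 10.52 and 10.56 there and 11.25 to 11.55 on the rest. CDC20 and KIF23 had the widest ranges, 1.55 and 1.44, and NUSAP1 the smallest p, 0.384 in limma. Their part in the members' spread was not tested.

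Markers of the cell line and of other cells were read on the same arrays. The 6 genes high in this line, among them VIM at 12.99 to 13.37 and CAV1 at 12.35 to 12.74, had list means of 12.55 to 12.72. Of 8 genes chosen as low, ESR1, PGR and CDH1 lay below every array's median, while ERBB2, EPCAM, GATA3, KRT8 and KRT18 did not. KRT8 ran from 12.05 to 12.15 and KRT18 from 11.83 to 12.16, so these 2 were not low here. Of 6 immune markers, PTPRC, CD3E, CSF1R and LYZ lay below every array's median, with PTPRC, which all white blood cells carry, at 3.55 to 3.68. CD14 was highest on empty-vector array 1 (8.98) and GHSROS array 3 (8.09), against 6.56 to 6.96 elsewhere, and CD68 ran from 12.06 to 12.66. The immune list mean was 6.34 to 6.84 on empty-vector arrays and 6.23 to 6.64 on GHSROS arrays. Of 8 fibroblast and endothelial markers 5 lay below every array's median, with list means of 5.65 to 5.84 and 5.75 to 5.98. PDGFRB and PECAM1 had the widest ranges of these, 1.01 and 0.93. DCN had the smallest p, 0.130 in limma (adjusted p 1). It was at 3.66 to 3.77 with the empty vector and 3.53 to 3.59 with GHSROS, so its groups did not overlap. Groups without overlap were also seen for VIM and LYZ among the markers read, and for 5.51% of all genes. The part of these markers in the members' spread was not tested.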

How the data were processed

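RNA of 6 samples, 3 per group by the sample titles, was measured on 1-colour Affymetrix arrays. The deposited values are on the log2 scale, 1 per probe set. Per the submitters' processing notes RMA was the authors' tool, with no version, normalization or filter named there. Levels of different probe sets are not comparable, so differences were compared. Array medians differed by at most 0.09. Arrays have no read depth, so precision is limited by their number.

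Of 28869 probe sets, 19310 were paired with 1 symbol, 1752 with several and 7807 with none listed. Genes were read by their brightest single-symbol probe set, with no filter on level, and 0 columns were left out. All 18377 genes were tested with limma (version 3.58.1, in R 4.3.3), fitting group alone and moderating variances with eBayes. Tests were two-sided and p-values adjusted by Benjamini-Hochberg, with a threshold of 0.05. The fit was also run on simulated data with known shifts and independent noise on each array. That check lacks the spread shared between arrays here, so it does not measure power in these data. The design text calls the samples biological replicates without saying how they were grown, so part of the spread behind the p-values may be technical.

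The 42 members, the 5 role groups, the other lists and the alternatives were chosen with earlier results of these data known. Members named in full were ATF4 and, per role group, the 2 with the widest range and the 1 with the smallest p. In other lists those 3 were named. DDIT4, CEBPB, CEBPG, ATF5, SLC7A1 and MTHFD2 were added after their values were seen. Promoter windows are RefSeq's, matched by symbol.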

Additional observations from a re-analysis of the deposited data

How the results depend on the processing

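Under 15 alternatives limma called 0 members and 0 genes at an adjusted p of 0.05 each time. These were the replicate number as a block (replicate block), quantile normalization, median centring, filters on level at the median and the 25th percentile, probe sets averaged per gene, a robust prior with a trend on intensity, array weights, each array left out, and both arrays that stood apart left out. At an unadjusted p under 0.05 there was 1 of 42 members without empty-vector array 3 (ATF4), where 2.61% of all genes passed, and 1 without GHSROS array 3 (SLC1A5), where 2.47% did, so these shares were near the background. The members' median log2 fold change ran from -0.18 to 0.10 over the omissions of 1 array. It was -0.02 with the replicate block, -0.01 after quantile normalization and -0.13 with array weights, where 33 of 42 were lower. The sign of the log2 fold change turned on leaving out 1 array in 38 of 42 members. The share over all genes was not computed, so this count has no background. Median absolute log2 fold changes were small in both, 0.05 in members and 0.06 over all genes. The replicate block gave 223 genes at an unadjusted p under 0.05, against 325 without it. Same-numbered arrays had correlations of their deviations across genes of -0.71, 0.50 and -0.67, positive for number 2 alone, so the numbers were not taken as pairs. Across numbers, the correlation was 0.83 for empty-vector array 1 with GHSROS array 3. For empty-vector array 3 with GHSROS array 1 it was 0.74. Arrays of the 2 groups thus shared part of their spread. The deviations were taken from each group's mean of 3 arrays and sum to 0 within a group. These correlations therefore depend on one another and are not separate evidence. A fit blocked on these matches was not run. The filters left out STC2 and ALDH1L2.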
